A study of Mus musculus with 17 samples.

Results

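The promoters described here are 1801 transcription start sites of the high-CpG class that lacked nucleosome-sized fragments at the start site in mouse embryonic stem (ES) cells and in mouse sperm alike. They were chosen by their measured signal. For each start site the start-site ratio was taken, which is the mean signal within 200 bp of the start divided by the mean signal of the flanks, 1000 to 2000 bp away on both sides. A promoter was called depleted in both when the ratio was at most 0.10 in each of the 2 cell types and the flanks held about 10 fragments or more in each. Of 10576 high-CpG start sites among 16493 that the authors classed by CpG content, 10262 had flanks that deep, and 1801 of them (17.6%) were depleted in both. The values of the ES cell and standard sperm libraries at these promoters are therefore a description and carry no test. The remaining 8461 promoters of that depth are called the other high-CpG promoters, and 832 of those, with a ratio of at least 0.5 in both cell types, are called the covered promoters.

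The ES cells were of the E14 line, of 129 X Ola background, grown on gelatin without feeder cells in medium with serum and LIF. Sperm came from C57/B6J mice aged 10 weeks, were collected by swim-up from cauda epididymis and vas deferens, and were crosslinked with 1% formaldehyde, a step the labels do not give for ES cells. Both were digested with micrococcal nuclease (MNase) for 5 min at 37 °C, with 1000 times as much enzyme per cell for ES cells as for sperm in the standard digestion, and the supernatant of a spin at 5000 g was sequenced. A sperm titration gave 12 further libraries: an unspun series at 0.5, 2, 10 and 50 units, and supernatant and pellet series at 1, 5, 20 and 100 units each. Each group was 1 library, so no value has a replicate. How many sperm a titration digest held is not given in the sources, so the standard digestion has no place on the scale of units. Strain and enzyme per cell differed together with cell type, and crosslinking may have, and none of them can be told apart from it.

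MNase cuts DNA that no protein holds, and a nucleosome leaves a fragment of roughly the length wrapped around its histones. Promoters in CpG islands are GC-rich, mostly unmethylated in the germ line, and drive housekeeping as well as many developmental genes. Their start sites are known to hold few stable nucleosomes in cultured cells. In maturing sperm most histones are replaced by protamines, and the histones that stay have been reported to lie preferentially at CpG-rich DNA. Yield of fragments from a site also depends on how far digestion has gone, because short digestion frees open nucleosomes first and long digestion destroys them.

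The sequences of 3 depleted promoters with no signal at all within 200 bp in either cell type show what such a start site looks like. Mterf1b encodes a mitochondrial transcription termination factor, Rimklb a ligase that joins glutamate to N-acetylaspartate, and Rps6ka5 a kinase of histone H3 and CREB. Each runs from 200 bases before the RefSeq start of transcription to 30 bases after its first base, 5′ to 3′, with every CpG in capitals. The sequences are RefSeq's, in GRCm38.p6, and lie at chr5:4192167-4192396 on the plus strand, chr6:122486276-122486505 on the minus strand and chr12:100725091-100725320 on the minus strand. The RefSeq start may differ from the start site of the deposited tables, which are in mm9.
Mterf1b: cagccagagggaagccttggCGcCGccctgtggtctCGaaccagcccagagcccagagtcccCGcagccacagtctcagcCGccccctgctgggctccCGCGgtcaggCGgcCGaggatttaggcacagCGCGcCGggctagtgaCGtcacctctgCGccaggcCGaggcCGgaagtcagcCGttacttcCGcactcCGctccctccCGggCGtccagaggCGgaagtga
Rimklb: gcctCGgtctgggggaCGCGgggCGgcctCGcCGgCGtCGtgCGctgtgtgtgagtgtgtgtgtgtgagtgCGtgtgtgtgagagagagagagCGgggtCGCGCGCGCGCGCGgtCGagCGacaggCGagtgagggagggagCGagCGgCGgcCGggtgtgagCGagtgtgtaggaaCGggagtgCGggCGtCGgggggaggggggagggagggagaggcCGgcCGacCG
Rps6ka5: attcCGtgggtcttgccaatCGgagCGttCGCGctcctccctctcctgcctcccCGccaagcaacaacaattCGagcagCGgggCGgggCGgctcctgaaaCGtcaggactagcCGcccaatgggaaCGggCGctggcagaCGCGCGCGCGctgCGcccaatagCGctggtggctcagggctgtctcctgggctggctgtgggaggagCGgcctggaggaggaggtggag

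The same stretch of 2 depleted promoters that were among the 8 with the most signal in the highest-dose titration libraries is shown next. Cxxc4 encodes a zinc finger protein that binds CpG DNA and dampens Wnt signalling, and Jup encodes plakoglobin of cell junctions. They lie at chr3:134236295-134236524 on the plus strand and chr11:100397761-100397990 on the minus strand.
Cxxc4: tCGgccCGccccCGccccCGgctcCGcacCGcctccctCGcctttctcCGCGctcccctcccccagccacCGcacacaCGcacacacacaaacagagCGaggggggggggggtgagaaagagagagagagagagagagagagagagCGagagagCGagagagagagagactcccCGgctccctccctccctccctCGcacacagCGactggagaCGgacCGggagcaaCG
Jup: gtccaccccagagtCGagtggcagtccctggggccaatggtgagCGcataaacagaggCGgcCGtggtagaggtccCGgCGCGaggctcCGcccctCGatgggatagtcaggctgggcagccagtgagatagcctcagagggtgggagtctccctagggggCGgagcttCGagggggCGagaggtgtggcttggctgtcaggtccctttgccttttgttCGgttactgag

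For contrast, 2 promoters that were covered in both cell types are shown in the same way. Enkur encodes a protein of sperm flagella and motile cilia, and Neu3 a sialidase of the plasma membrane. They lie at chr2:21205336-21205565 on the minus strand and chr7:99828388-99828617 on the minus strand.
Enkur: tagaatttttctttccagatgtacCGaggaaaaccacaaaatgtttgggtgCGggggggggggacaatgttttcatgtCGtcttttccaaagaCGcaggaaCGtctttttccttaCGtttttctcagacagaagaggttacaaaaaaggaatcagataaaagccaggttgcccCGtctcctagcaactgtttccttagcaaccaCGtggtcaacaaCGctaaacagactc
Neu3: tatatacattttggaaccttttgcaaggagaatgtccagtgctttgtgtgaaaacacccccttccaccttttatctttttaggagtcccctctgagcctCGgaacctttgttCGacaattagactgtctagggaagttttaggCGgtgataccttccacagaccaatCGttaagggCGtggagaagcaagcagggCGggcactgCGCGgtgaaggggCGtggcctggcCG

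The 5 depleted stretches, each of 230 bases, held 22, 33, 22, 20 and 13 CpGs in the order printed, and the 2 covered ones 9 and 10. Their GC content was 70.4%, 73.9%, 68.3%, 69.1% and 64.4% at the depleted promoters, against 44.8% at Enkur and 51.3% at Neu3.

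At the depleted promoters the fragments of the ES cell and standard sperm libraries all but disappeared at the start site and came back farther out. The pooled start-site ratio, summed over all 1801 promoters, was 0.0269 in ES cells (95% exact binomial interval 0.0244 to 0.0294) and 0.0198 in sperm (0.0173 to 0.0225). It was 0.383 and 0.268 at the other high-CpG promoters, and 0.993 and 0.854 at the covered promoters. A depleted promoter had a median of 46.9 fragments in its flanks in ES cells and 32.3 in sperm, against 43.3 and 29.8 at the other high-CpG promoters. Within 200 bp of the start site the medians were 0.045 and 0 at the depleted promoters, and only 2.68 and 1.27 at the others. No signal at all was seen there at 832 depleted promoters in ES cells, at 1072 in sperm and at 562 in both (31.2%). Among the other high-CpG promoters, 340 of 8461 (4.02%) had none in ES cells and 926 (10.9%) in sperm. With so few fragments a single promoter can read 0 by sampling, and the part of sampling in the choice was not tested. Intervals cover counting error only.

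The threshold cuts through a continuous range. Of the depleted promoters, 9.38% had 0.09 or more as the larger of their 2 ratios, and 1.96% of the other high-CpG promoters had 0.10 to 0.11. Just inside were Dnajb4, a heat-shock co-chaperone, with 0.0207 in ES cells and 0.10 in sperm, Aamp with 0.10 and 0, and Efcab2 with 0.0999 and 0.00677. Just outside were BC005537 with 0.1001 in ES cells and 0 in sperm, Ngef with 0.1001 and 0, and Atad1 with 0.1001 and 0.0673. A ratio of at most 0.10 was found at 28.9% of the 10262 promoters in ES cells (2969) and at 38.7% in sperm (3971). The promoters depleted in both made up 60.7% of the first and 45.4% of the second.

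**Figure D1:**
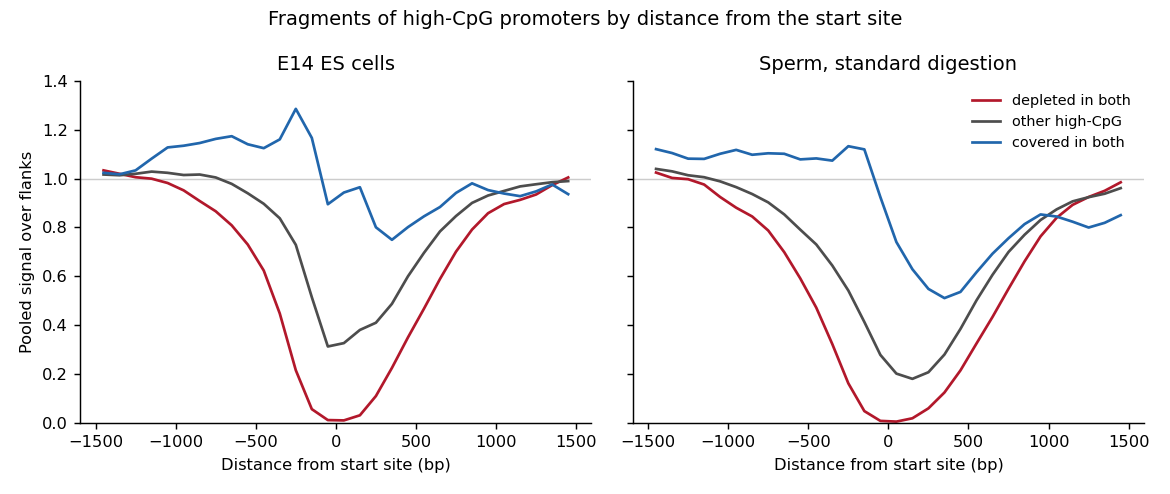
Pooled signal in steps of 100 bp, divided by the flanks, against the distance from the start site in bp (negative is upstream), for the 1801 promoters depleted in both, the 8461 other high-CpG promoters and the 832 covered promoters, in E14 ES cells and in sperm of the standard digestion. The depleted promoters fall to near 0 at the start site and the gap is wider in sperm; their low centre is what chose them.

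The rule fixed the depth of the gap within 200 bp of the start site, but not its shape farther out. The gap was lowest 10 bp after the start site, at 0.00823 of the flanks in ES cells and 0.00396 in sperm. That depth lies in the window that chose the promoters. In ES cells the pooled signal came back to 0.5 of the flanks 390 bp upstream and 590 bp downstream, so the gap reached farther into the gene than away from it. In sperm both edges lay farther out, at 490 bp upstream and 710 bp downstream. At the other high-CpG promoters the same level was reached at 150 and 370 bp in ES cells and at 230 and 550 bp in sperm, so the wider gap of sperm was not particular to the depleted set. These distances come from the libraries that chose the promoters and carry no test. A low mean within 200 bp also keeps the edges of the depleted set away from the start site. The difference between these edges and those of the other promoters is therefore partly built in.

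Promoter by promoter, the longest stretch without any signal that reached within 200 bp of the start site was taken. It need not include the start site itself. Its median length was 600 bp in ES cells and 760 bp in sperm. The middle 50% of promoters spanned 420 to 820 bp in ES cells and 560 to 1020 bp in sperm. The stretch was wider in sperm at 1207 depleted promoters (67%) and wider in ES cells at 555. The sperm library had the thinner flanks, which lengthens a stretch without signal, and the part of depth in this difference was not tested.

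Long empty stretches in both libraries were seen at 4 genes, chosen after their values were seen by the shorter of their 2 stretches. At Phf10, a subunit of a SWI/SNF chromatin remodelling complex, the stretch ran over 2560 bp in ES cells and 2600 bp in sperm. At Kri1 it was 2540 and 2560 bp, and at Dgcr8, the partner of Drosha in microRNA processing, 2360 and 2080 bp. At these 3 the stretch ran to the upstream end of the table, 2000 bp from the start site, in ES cells. Insm1, a zinc finger factor of endocrine and nerve cells, had its stretch mostly downstream, from 460 bp before to 1560 bp after the start site in ES cells and from 300 bp before to 1740 bp after it in sperm.

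Start sites of 2 genes can lie back to back, and the gap then extended farther upstream. A start site of another gene lay within 1000 bp at 12.8% of the depleted promoters that carry a symbol (230 of 1793) and at 15.8% of the other high-CpG promoters (1326 of 8389). Where the RefSeq strand was known, 160 of 1408 depleted promoters (11.4%) had such a neighbour pointing the opposite way upstream, against 13.1% of the others. At those 160 the signal came back to 0.5 of the flanks 490 bp upstream and 470 bp downstream in ES cells, and 650 and 550 bp in sperm. At the 1248 without one the distances were 370 and 590 bp in ES cells and 470 and 730 bp in sperm. So the gap was longer on the gene side at single promoters and about even, or longer upstream, at paired ones. The other high-CpG promoters shifted the same way, so this was not particular to the depleted set. At 880 of them with such a neighbour the distances were 390 and 210 bp in ES cells and 650 and 450 bp in sperm. At the 5827 without one they were 150 and 390 bp in ES cells and 210 and 570 bp in sperm.

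The deepest depleted promoters show the pattern at single genes. Mier1, a transcriptional corepressor, had 92.2 fragments in its flanks and 0 at the centre in ES cells, and 60.9 and 0 in sperm. Khdrbs2, an RNA-binding protein of the nervous system, had 88 in the flanks and 0.045 at the centre in ES cells, and 74.1 and 0 in sperm. Ankrd28, a regulatory subunit of protein phosphatase 6, had 89.1 and 0 in ES cells, and 55.2 and 0.50 in sperm. Mier1 and Khdrbs2 thus lacked all but a trace of signal in both libraries, and Ankrd28 lacked it in ES cells only.

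The other genes among the 8 deepest kept a little signal within 200 bp in both libraries, as Ankrd28 did in sperm. Thoc1, of the THO complex that couples transcription to mRNA export, had 145.6 flank fragments and a ratio of 0.0421 in ES cells, and 64.7 and 0.0949 in sperm. Psme4, an activator of the proteasome, had ratios of 0.0473 and 0.0337. Boll, an RNA-binding protein needed in male germ cells, had 0.0422 in ES cells and 0.0884 in sperm. Ube2r2, a ubiquitin-conjugating enzyme, had 0.0368 and 0.0524, and Tmem167, a Golgi membrane protein, had 0.0866 and 0.0329. All 8 had flanks deeper than the median depleted promoter in both libraries.

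The sperm titration was not used to choose the promoters, and there the start sites gained signal as the MNase dose rose. In the unspun series the pooled start-site ratio of the depleted promoters was 0.297 (0.241 to 0.361) at 0.5 units, 0.681 (0.586 to 0.786) at 2 units, 0.668 (0.560 to 0.787) at 10 units and 1.70 (1.5 to 1.92) at 50 units. In the supernatant series it was 0.575 (0.472 to 0.694) at 1 unit, 0.751 (0.613 to 0.910) at 5, 0.843 (0.726 to 0.978) at 20 and 1.74 (1.57 to 1.93) at 100. In the pellet series it was 0.884 (0.624 to 1.23), 0.915 (0.733 to 1.13), 1.24 (1.03 to 1.47) and 2.17 (1.94 to 2.41) at the same doses. The lowest dose of each series was therefore at or below the level of the flanks, and the highest dose was above it in all 3. The standard sperm library gave 0.0198, a value held low by the choice of promoters, so it is no measure of change. At the other high-CpG promoters, left over by the same choice, the standard library gave 0.268 and the mildest unspun digest 0.706.

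Between the first and the last dose the ratio of the depleted promoters rose by a factor of 5.71 unspun, of 3.03 in supernatants and of 2.45 in pellets. The shared slope was 0.25 on the log2 scale for each doubling of the units, and it was positive in 3 of 3 series, at 0.34, 0.23 and 0.20. With the doses of each series reordered in all 13824 ways, the two-sided exact permutation p was 2.17e-04, with a Benjamini-Hochberg adjusted p of 8.68e-04 over the 4 tests made on these libraries. The smallest p these orderings can give is 7.23e-05. Each dose is 1 library, so the test measures how regular the rise was over doses, not over animals or digests. High-CpG promoters as a class were known to gain signal with dose in these data, so the rise alone is not independent evidence on the depleted ones.

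**Figure D2:**
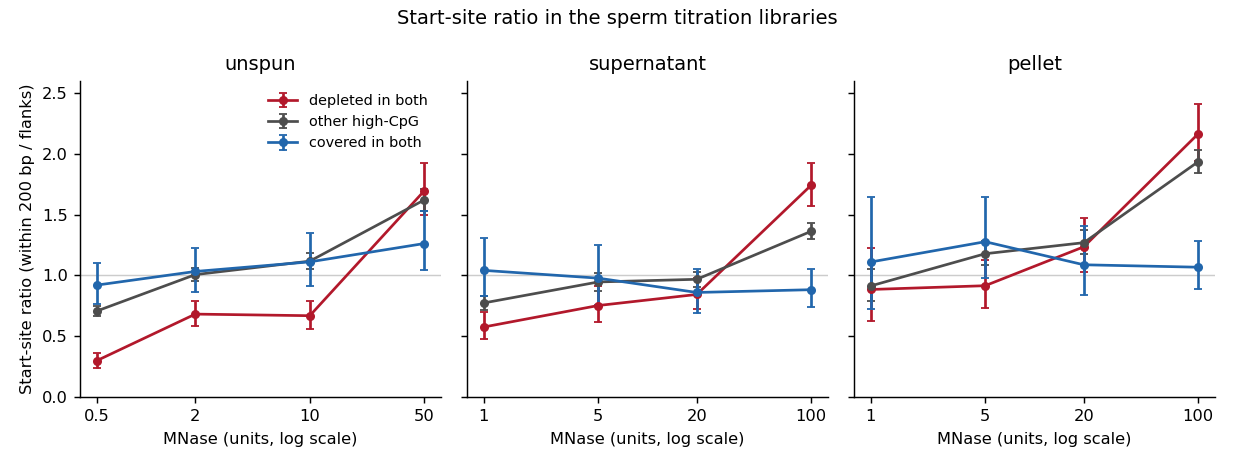
Start-site ratio (pooled signal within 200 bp over that of the flanks) in each of the 12 sperm titration libraries against MNase units on a log scale, 1 panel a series, for promoters depleted in both, other high-CpG promoters and covered promoters; points are single libraries and bars 95% exact binomial intervals. The depleted promoters rise from 0.297 to 1.70, from 0.575 to 1.74 and from 0.884 to 2.17, while the covered promoters stay between 0.859 and 1.28.

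The rise was steeper than at the other high-CpG promoters, which moved from 0.706 to 1.62 unspun, 0.773 to 1.36 in supernatants and 0.913 to 1.94 in pellets. Their folds from first to last dose were 2.30, 1.77 and 2.12, and those of the covered promoters 1.37, 0.847 and 0.962. On the log2 scale the ratio of the depleted promoters over that of the others had a shared slope of 0.11 per doubling, positive in 3 of 3 series at 0.17, 0.11 and 0.042 (two-sided exact permutation p = 0.0061, adjusted p = 0.0082). The call was lost without the highest dose of each series (slope 0.054, exact permutation p = 0.27). It was also lost among the 25% of promoters with the highest GC content (slope 0.060, exact permutation p = 0.26). So it was at a ratio of at most 0.05 (slope 0.085, exact permutation p = 0.12) and with flanks 5 times as deep (slope 0.064, exact permutation p = 0.56). In these 4 settings the depleted promoters, as each setting defines them, rose with dose all the same. Their slopes were 0.17, 0.30, 0.24 and 0.28 in the order given (exact permutation p = 0.028, 1.45e-04, 0.0028 and 0.038).

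The depleted promoters lay below the others in 9 of 12 libraries and above them at the highest dose of each series. At the lowest doses the ratio of the depleted promoters was 0.421 of that of the others in the unspun series, 0.744 in the supernatant and 0.968 in the pellet. At the highest doses it was 1.05, 1.28 and 1.12 times that of the others. The mean log2 difference over the 12 libraries was -0.28, with a two-sided exact sign permutation p of 0.040 over 4096 sign changes (adjusted p = 0.040). This call rested on the series chosen: it was lost without any 1 of the 3 in exact sign permutations, at -0.11 (p = 0.27) without the unspun, -0.35 (p = 0.094) without the supernatant and -0.39 (p = 0.063) without the pellet. It was also lost with supernatant and pellet of a dose changing sign together (exact sign permutation p = 0.070), and the other settings that ended it are given with the alternatives. The order of the sets in the mildest unspun digest was that of the libraries that chose them, depleted lowest (0.297), others next (0.706) and covered highest (0.920). At 100 units in the supernatant it was the reverse, 1.74, 1.36 and 0.882, with intervals that did not overlap.

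Around the start sites as a whole, the depleted promoters took a growing share of the high-CpG signal. They were 17% of high-CpG start sites and held 13% of the high-CpG signal within 1000 bp in ES cells and 13.1% in sperm of the standard digestion. In the titration their share was 14.4%, 15.2%, 15.1% and 17.9% in the unspun series as the dose rose. It was 16%, 15.3%, 16.8% and 18.2% in the supernatant and 14.3%, 15.4%, 16% and 18.1% in the pellet. The highest dose of each series held the highest share. The slope of the log2 share was 0.041 per doubling, positive in 3 of 3 series (two-sided exact permutation p = 0.0011, adjusted p = 0.0022). Without the highest doses it was 0.023 (exact permutation p = 0.083), and among the 137 promoters left with flanks 5 times as deep it was -0.0070 (p = 0.83).

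**Figure D3:**
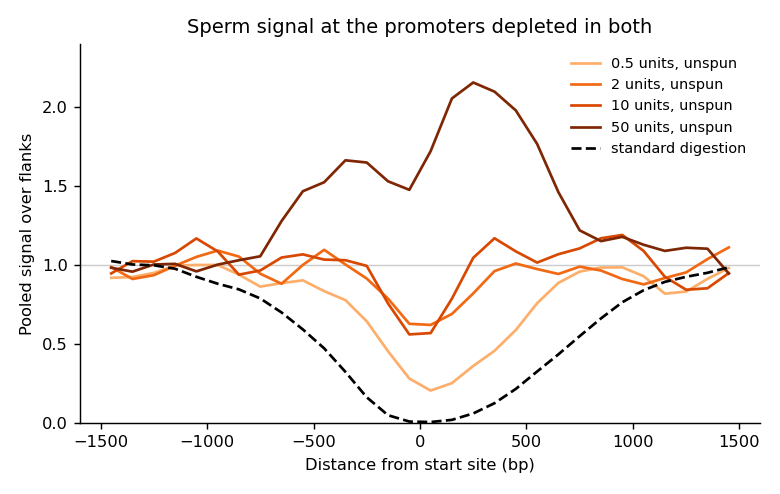
Pooled signal of the 1801 depleted promoters in steps of 100 bp, divided by the flanks, against the distance from the start site in bp, in the 4 unspun sperm libraries and, dashed, the standard sperm library that helped choose them. The gap is shallower at 0.5 units than in the standard library and is replaced by a peak after the start site at 50 units.

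Along the unspun series the gap closed and then turned into a peak. The lowest point of the pooled profile was 0.204 of the flanks, 50 bp after the start site, at 0.5 units, 0.598 at 2 units and 0.537 at 10 units. At 50 units the highest point was 2.16 times the flanks, 230 bp after the start site. Over the 300 bp after the start site the ratio of the depleted promoters was 0.272, 0.710, 0.80 and 1.98 at the 4 doses, and over the 200 bp before it 0.367, 0.707, 0.658 and 1.5. The other high-CpG promoters also had their peak after the start site at 50 units, 2.02 times the flanks at 190 bp.

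The 562 promoters with no signal in either of the libraries that chose them were not empty in the titration. Their pooled start-site ratio was 0.174 at 0.5 units and 1.71 at 50 units in the unspun series, 0.493 and 1.53 at the ends of the supernatant series, and 0.925 and 2.17 at those of the pellet. The slope was 0.29 per doubling. At the lowest doses these values rest on 18.8, 32 and 12.3 fragments, the latter pair too low because isolated signal at 1 unit most often adds 2 counts and not the 3 taken for a fragment. At least 1 fragment within 200 bp over the 3 highest-dose libraries was seen at 595 depleted promoters (33%) and at 32.9% of the 562, where 32.1% of all 10262 promoters had one. Over the 3 lowest-dose libraries, of which the 1-unit ones are counted too low in both sets, this held for 5.61% of the depleted promoters beside 10% of all. These shares carry no test. Taking each library alone, 822 depleted promoters (45.6%) had a whole fragment in some library, beside 51.5% of all. Over all 12 libraries 1055 depleted promoters (58.6%) had at least 1 fragment, beside 65.4% of all, and 268 had no signal at all within 200 bp.

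The 8 single promoters with the most signal at the highest doses held a small part of it. Over all 1801 depleted promoters these 3 libraries gave 1323 fragments within 200 bp, and 674 promoters had none. Cxxc4, whose sequence is printed above, had 0.727 fragment at 50 units unspun, 3 at 100 units in the supernatant and 2.00 at 100 units in the pellet. It also had 2.00 at 1 unit in the pellet and 0 in the other 8 libraries. Jup had 4.67 fragments at 100 units in the supernatant, 0.667 at 5 units in the pellet and 0.636 at 2 units unspun, and 0 elsewhere. Fut8, the enzyme of core fucosylation, had no signal at the centre in ES cells or standard sperm. It had 1.00, 1.33 and 2.33 at the highest unspun, supernatant and pellet doses and 1.33 at 1 unit in the pellet. Pink1, a kinase of mitochondrial quality control, had 2.00 and 2.33 at 100 units in supernatant and pellet and 0 in the other 10 libraries. Senp2, a SUMO protease, had 3 and 1.33 there and 0.682 at 2 units unspun.

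For Glg1, a Golgi glycoprotein, the highest doses gave 1.41, 2.33 and 0.667 fragments in unspun, supernatant and pellet, and the other 9 libraries 0. Ypel1 had 1.05, 1.33 and 2.00, and 0 elsewhere. Zmynd19 had 0.455, 2.00 and 2.00, and 0.136 at 0.5 units. These counts are a handful of fragments per gene, chosen for being the highest, and their order carries no weight.

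Single depleted promoters held few fragments in the titration, and the deepest ones were not set apart in this. The median depleted promoter had 1.182 fragments over all 12 libraries. Mier1 (1.273) and Ahcyl1 (5.303) lay above that median, and Macrod2 (1.00) and Mterf1b (0) below it. Of the 4 deepest promoters with no signal in ES cells and standard sperm, Mier1 had 1.27 fragments at 10 units unspun and 0 in the other 11 libraries, and Mterf1b had 0 in all 12. Macrod2, an ADP-ribose hydrolase, had 1.00 at 100 units in the supernatant only. Ahcyl1, a regulator of the inositol trisphosphate receptor, had signal in 5 libraries: 2.00 at 1 unit and 1.00 at 100 units in the supernatant, 1.00 and 0.636 at 0.5 and 50 units unspun, and 0.667 at 5 units in the pellet. At this depth a single promoter with 0 fragments in a titration library does not show that it was empty.

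Genes of some functions were found among the depleted promoters more often than others. Of 10151 genes with a high-CpG promoter of sufficient depth, 1786 (17.6%) had a depleted one, and 23 gene lists made from symbols were set beside that share without a test. The highest share was that of ubiquitin-conjugating enzymes and deubiquitinases, 26 of 71 genes (36.6%), with a median start-site ratio over all 71 of 0.121 in ES cells and 0.0612 in sperm. The medians over all 10151 genes were 0.230 and 0.160. Among the 26 were the conjugating enzymes Ube2r2, Ube2b, which acts in DNA damage tolerance and spermatogenesis, Ube2n and Ube2k, and the deubiquitinases Usp1, Usp10 and Usp28. Lists made from symbols also catch look-alikes, here Usp6nl, which is no deubiquitinase, and Slc4a1ap among the solute carriers, which is no transporter.

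Chromatin modifiers came next with 20 of 63 genes (31.7%) and median ratios of 0.160 and 0.0896. They included the methyltransferases Kmt2b and Kmt2c of histone H3 lysine 4, Suz12 of the Polycomb repressive complex PRC2, the demethylase Kdm1b, which acts on imprints in oocytes, and the acetyltransferases Kat6a and Kat6b. They also included the remodelling ATPases Smarca4, Smarca5 and Chd1. The deepest was Setd3, a methyltransferase of actin, with ratios of 0.00907 in ES cells and 0.0633 in sperm. Signalling ligands followed with 13 of 43 (30.2%), among them Wnt4, Wnt7a, Bmp7, Fgf2, Fgf4 and Ihh, although the deepest match, Bmp2k, is a kinase and no ligand.

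**Figure D4:**
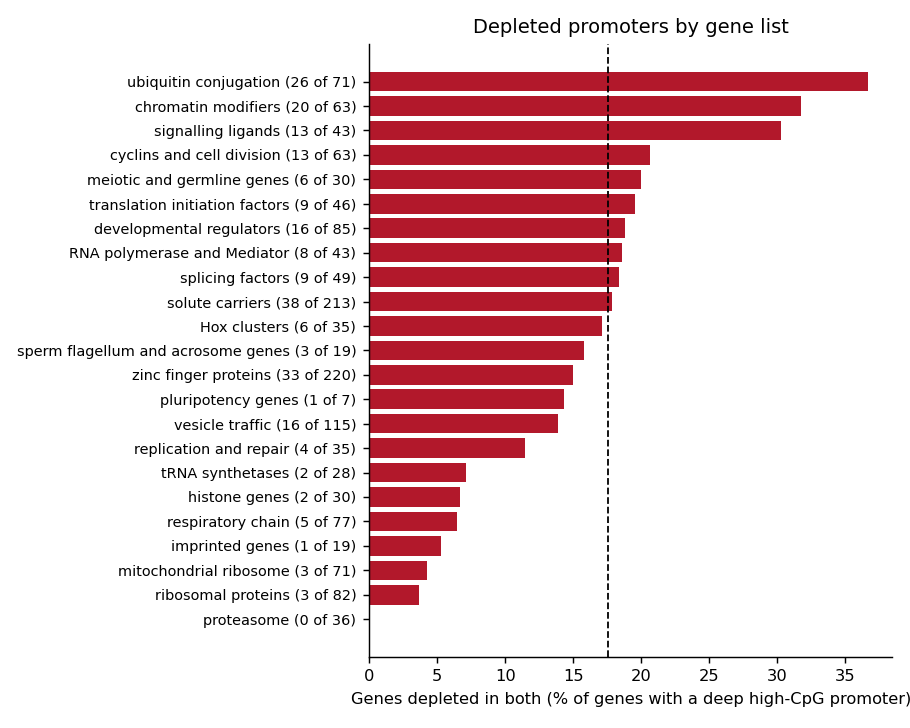
Share of genes whose high-CpG promoter was depleted in both, in percent of the genes of each list with a promoter of sufficient depth, with the counts beside each name; the dashed line is the share over all genes, 17.6%. Ubiquitin conjugation (36.6%) and chromatin modifiers (31.7%) lie highest and the proteasome (0 of 36) lowest.

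At the other end were the lists of the proteasome, both ribosomes, the respiratory chain, histones and imprinted genes, again with no test. No proteasome subunit of 36 was depleted in both, and the list's median ratios were 0.417 in ES cells and 0.251 in sperm; Psme4, an activator, is not on it. Of 82 matches to ribosomal protein names 3 were depleted (3.66%), Rpl27a, Rpl36al and Rps6ka5, the last of which is the kinase printed above and no ribosomal protein. The mitochondrial ribosome had 3 of 71 (Mrpl57, Mrps15 and Mrps7), and the respiratory chain 5 of 77, of which Ndufaf4 is an assembly factor. Replication-dependent histones had 2 of 30 (H4c11 and H4c12), and imprinted genes 1 of 19, Dlk1. Translation initiation factors had 9 of 46 (19.6%), among them Eif3a, Eif5b and Eif4e3.

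Developmental transcription factors had 16 of 85 depleted (18.8%), among them Foxa1, Foxd3, Lhx2, Sox1 and Tbx2, and the Hox clusters 6 of 35 (Hoxa13, Hoxc8, Hoxc10, Hoxd1, Hoxd8 and Hoxd13). Hoxd1, the deepest, had 69 and 38.3 flank fragments and no signal at the centre, and its empty stretch was 1000 bp in ES cells and 1340 bp in sperm. Meiotic and germ line genes had 6 of 30, including Spo11, which makes the breaks of meiotic recombination, and Ddx4, the germ cell helicase. Sperm flagellum and acrosome genes had 3 of 19 (Spag9, Spag16 and Odf2), and pluripotency factors 1 of 7, Klf4, with no centre signal in ES cells and a ratio of 0.0617 in sperm.

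Among the remaining lists, the counts were 13 of 63 for cyclins and cell division, of which Cdc42se2, the deepest, Cdc42ep3 and Cdc42bpb act with the GTPase Cdc42, 9 of 49 for splicing factors and 8 of 43 for RNA polymerases and Mediator. Solute carriers had 38 of 213, zinc finger proteins 33 of 220, vesicle traffic 16 genes (13.9%), and replication and repair 4 of 35. The deepest of each of these lists were Snrpb2, Med23, Slc30a5, Zfp184, Copg2 and Gins3, with ES cell ratios of 0.0797, 0.0369, 0.0612, 0.0817, 0.0894 and 0.0965. In sperm their ratios were 0, 0.00376, 0.0703, 0.0383, 0.00396 and 0.0278. By chromosome the share of depleted promoters ran from 12.2% on chromosome 7 to 24% on chromosome 14, with 20.9% on the X.

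The depleted promoters stood out in their base composition. RefSeq gave a single promoter, 250 bases before to 50 after the start, for 1127 of their 1792 genes (62.9%), which is under the 80% needed for a check over the whole set, so what follows describes these 1127 only. Their median GC content was 71%, with the middle 50% from 65.7% to 75.7%. It was 61% at 5500 other high-CpG promoters, 54.2% at 478 covered promoters and 52.3% over all 22862 RefSeq promoters of genes with 1 entry. With every RefSeq entry of a gene averaged, the medians were 70%, 60.8% and 55% for depleted, other and covered promoters. The median number of CpGs in the 300 bases was 32 at the depleted, 21 at the other and 13.5 at the covered promoters, and the observed over expected CpG ratio 0.90, 0.773 and 0.630. Promoters depleted in only 1 cell type lay between, at 63.3% GC for ES cells only and 65% for sperm only.

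**Figure D5:**
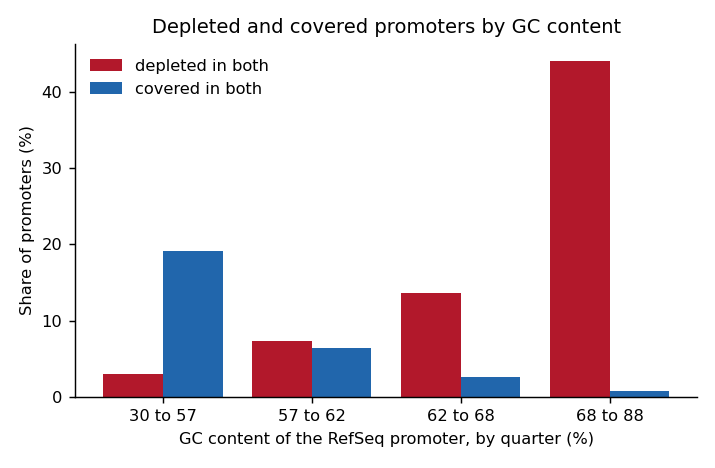
Share of high-CpG promoters that were depleted in both or covered in both, in percent, in 4 groups of about equal size by the GC content of the RefSeq promoter (300 bases). The depleted share rises from 2.96% to 44.1% and the covered share falls from 19.1% to 0.785% over the groups.

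Divided by GC content into 4 groups of about equal size, high-CpG promoters of the lowest group were depleted in both in 2.96% of cases (49 of 1657), then 7.36%, 13.7% and, in the highest, 44.1% (730 of 1657). The covered promoters went the other way, 19.1%, 6.46%, 2.54% and 0.785%. The same held by number of CpGs, with 3.92% to 42.4% depleted from the lowest to the highest group, and less steeply by the observed over expected ratio, with 7.06% to 29.6%. GC content can also change how many fragments a library yields from a stretch. Its part in the depletion was not tested.

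Within the group of highest GC content the start sites held signal when digestion was harder. Over the 1608 promoters of that group, those tied at its lower bound left out, the start-site ratio was 0.132 in ES cells and 0.0725 in standard sperm. In the titration it was 0.350 at 0.5 units and 1.74 at 50 units unspun, 1.63 at 100 units in the supernatant and 2.20 at 100 units in the pellet. The group of lowest GC content had 0.897 and 1.63 at the ends of the unspun series, and 1.13 and 1.71 at the highest supernatant and pellet doses. The 717 depleted promoters of the highest group had 0.267 (0.183 to 0.369) at 0.5 units and 1.79 (1.47 to 2.19) at 50 units unspun, and the 891 others 0.412 (0.322 to 0.523) and 1.70 (1.42 to 2.01). Intervals of the 2 sets overlapped in every titration library except the one at 10 units unspun. There the depleted promoters had 0.570 (0.419 to 0.751) and the others 1.07 (0.879 to 1.30). The depleted promoters lay above the others at the highest dose of each series and at 1 unit in the pellet, and below them elsewhere. Over the 12 libraries the mean log2 difference within this group was -0.29 (exact sign permutation p = 0.045, unadjusted). This setting was added after the data were seen.

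Short sequence words were counted in the same 300 bases, on both strands, as matches of letters and not as sites of binding. The Sp box GGGCGG was present in 86% of the depleted promoters, 67.9% of the others, 44.6% of the covered and 35.2% of all RefSeq promoters. Each counted word without a CpG was present in a smaller share of the depleted than of the other or the covered promoters. The CCAAT box (CCAAT) was in 31.5%, 40.4%, 44.8% and 38.2% of these sets, the TATA box (TATAAA) in 3.19%, 7.13%, 14.2% and 14.8%, and the Staf core (ACTACAA) in 1.60%, 4.91%, 5.23% and 3.48%. The YY1 core AAGATGGC, listed below with the words that differed little, was in 4.44%, 5.27%, 4.81% and 2.94%. The ETS word CCGGAA was in 23.7%, 31%, 25.7% and 15.1%, with no single order over the sets.

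Other words differed little between the depleted and the other high-CpG promoters. The E box CACGTG was in 12% and 10.6%, the short CRE word TGACGT in 11.4% and 12.9%, the full CRE TGACGTCA, which contains it, in 3.02% and 3.62%, and the YY1 core AAGATGGC in 4.44% and 5.27%. The NRF1 core GCATGCGC was in 5.5% and 6.36%, the full NRF1 palindrome, which contains it, in 2.13% and 2.31%, and the Kaiso-related palindrome in 1.33% and 1.16%. Over all RefSeq promoters these 7 words were in 7.12%, 7.51%, 1.85%, 2.94%, 2.77%, 0.949% and 0.490%. A share of promoters with a word depends on base composition, which differed between the sets.

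The titration libraries were shallow and of 2 kinds. The depleted promoters had 43 to 510.0 fragments within 200 bp, summed over all of them, per titration library, with the least in the 1-unit pellet library. In the 1-unit supernatant and pellet libraries isolated signal was narrower than elsewhere, where 84.8% and 87.6% of isolated runs were 1 or 2 bins long. This share was 3.51% to 6.74% from 5 units up. Leaving the lowest doses out, the slope of the depleted promoters was 0.29 (exact permutation p = 0.0093) and the slope against the others 0.14 (exact permutation p = 0.023).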

How the data were processed

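Libraries were grouped by the labels, and 3 of 17 samples (unspun ES cells, sonicated sperm input and histone H3 immunoprecipitation) were not analysed here. The authors aligned reads to mm9 with Bowtie, per the submitters' processing notes, which also name SAMtools 0.1.16. Read filters and duplicate handling are not given in the sources. The authors deposited a signal for the ES cell, the standard sperm and the 4 unspun libraries: whole-number pileups in 20 bp bins reaching 2000 bp each way, built from 135 to 165 bp fragments according to the table names. For the supernatant and pellet series they deposited whole-number counts per bin at the classed start sites. Bins were taken as 50 bp, since where windows of neighbouring start sites overlap 91.0% of bins held equal values at that width (positions matched within 5 bp) and 5.32% at 20 bp. Neither their fragment size nor the limits of the CpG classes is stated.

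Neither table is scaled to depth. An isolated fragment adds 22 to a pileup and 3 to the counts, and fragments are sums divided by these. In the 1-unit supernatant and pellet tables an isolated fragment most often adds 2, so fragment numbers there are too low, which widens their intervals, while ratios and shares of signal within a library do not depend on it. Ratios within a library need no scaling between libraries. Counting intervals are 95% exact binomial on rounded fragments; reads carry no molecular identifiers. Start sites repeated in a table were taken once, and symbols came from a RefSeq gene table of GRCm38.p6, used for names. Pellet samples titled 5 and 20 units are described as 2 and 5 units, and the titles were followed. Slopes were tested by all orderings of doses within series and differences by all sign changes, two-sided, adjusted over 4 tests. The tests were tested on simulated data. Whether supernatant and pellet of a dose share a digest is not given, so they were also moved together.

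The promoters, lists, tests and alternatives were chosen with earlier results of these data known. Named genes are the 8 deepest, the 8 with most signal at the highest doses, the deepest of each list, the 4 deepest without signal, and 3 on each side of the threshold. Added to these were the 4 with long empty stretches, members of the lists, and the promoters printed as example sequences. The members of 1 list are not reported here. Python 3.11.15, numpy 2.4.6, pandas 2.3.3 and scipy 1.17.1 were used.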

Additional observations from a re-analysis of the deposited data

How the results depend on the processing

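The number of depleted promoters moved with the rule: it was 1130 at a ratio of at most 0.05, 1000 and 137 with flanks 3 and 5 times as deep, 2801 within 100 bp and 1155 within 300 bp of the start site, beside 1801. The dose slope of the depleted promoters kept its sign and stayed past the threshold in 18 of 18 alternatives, at 0.17 to 0.31. P-values here are exact permutation p-values and unadjusted. By exact permutation, the slope against the other promoters missed the threshold in 4 of 18: 0.064 (p = 0.56) with flanks 5 times as deep, 0.085 (p = 0.12) at a ratio of at most 0.05, 0.054 (p = 0.27) without the highest doses and 0.060 (p = 0.26) in the 25% of promoters with the highest GC content. The mean log2 difference missed it by exact sign permutation in 9 of 17: -0.24 with flanks 3 times as deep, -0.20 at a ratio of at most 0.15, -0.18 without the lowest doses, -0.11, -0.35 and -0.39 without the unspun, supernatant and pellet series, -0.28 (p = 0.070) with supernatant and pellet of a dose moved together, -0.21 in the 200 bp before the start site and -0.20 against the covered promoters. By exact permutation, the slope of the share missed it at 0.019 (p = 0.077) with flanks 3 times as deep and 0.023 (p = 0.083) without the highest doses, and turned to -0.0070 (p = 0.83) with flanks 5 times as deep. Deeper flanks leave fewer promoters and fewer doses leave fewer orderings; otherwise the cause was not tested. The GC group, the covered promoters as comparison, the promoters without centre signal, the removal of the 1 percent with most titration signal and the pellet units of the description were added after seeing the data. Replicates could not be paired because each group holds 1 library, while the sets of promoters were compared within each library.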

Other observations

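Some gene lists were depleted unequally in the 2 cell types, counting depletion in each alone, which the set depleted in both does not show. Replication-dependent histone genes had a ratio of at most 0.10 at 11 of 30 promoters in ES cells and at 2 of 30 in standard sperm, with median ratios of 0.159 and 0.441. Sperm flagellum and acrosome genes went the other way, with 4 of 19 in ES cells and 10 of 19 in sperm and medians of 0.338 and 0.0998. Developmental transcription factors had 23 of 85 and 40 of 85. Over all promoters 28.9% were that low in ES cells and 38.7% in sperm. These are counts from 1 library each, with no test.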
